A study of Rattus norvegicus with 9 samples.

Results

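Immune cells of the tibial osteotomy site were compared between a rat group that had received radial extracorporeal shock waves and a group that had not, on day 2 after injury and 4 h after the session. The comparison held 1 single-cell library per condition, TOE 2d 4h with shock waves and TO 2d 4h without, called below the treated and the untreated library. All cells with at least 200 detected genes and at most 20% mitochondrial UMIs were taken, which left 15318 of 15513 barcodes in the untreated and 16945 of 17187 in the treated library, together 32263 of the 114232 cells of the 8 libraries analysed. A UMI is a molecular tag, so that a UMI count is a count of captured RNA molecules. The 5 immune classes described here, B cells, neutrophils, monocytes, macrophages and mast cells or basophils, held 8983 cells in the untreated library and 11508 in the treated library.

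Both groups were male Sprague-Dawley rats 6 to 8 weeks old, and both carried a 3-mm circular osteotomy of the tibia and a 4-mm full-thickness wound on the foot. TOE rats had percutaneous shock waves at the osteotomy on days 2 and 4, and the TO group had the same surgery without them. The other libraries, used only to give the range of each value, were TO 2d 0h, taken before the first session, TO 4d 4h and TO 4d 24h, and the treated TOE 2d 24h, TOE 4d 4h and TOE 4d 24h. The remaining untreated sample, from day 2 and 24 h, was not analysed here. How many of the 9 rats behind the single-cell samples entered each library is not given in the sources used here, so a difference between the 2 libraries contains the difference between animals, dissections and library preparations, which cannot be told apart from the shock wave. With 1 library a side there is no replicate error and no test. Every interval is a 95% exact interval for counting error only.

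Cells were put into classes by marker UMIs, and the names stand for "cells with these markers". A marker counted as present where its UMIs per 10000 exceeded the mean over all cells of the pair, and a cell joined the class with the most present markers when it had at least 3 of them and led the next class by at least 2. The B cell markers included Cd79a, Cd79b, Pax5, Ebf1, Vpreb3 and Blnk. The neutrophil markers included the calprotectin genes S100a8 and S100a9 and the granule gene Camp, the monocyte markers included Cd14, Vcan, Ccr2 and Csf1r, the macrophage markers included the complement genes C1qa, C1qb and C1qc, and the mast cell and basophil markers included Prss34, Ms4a2 and Mcpt8. Of these panels, Marco was at 0 in the macrophages and Cyp11a1 at 0 in the mast cells or basophils of both libraries, and the neutrophil granule gene Ltf was at 0.287 and 0.0910 CPM (UMI counts scaled to a common total) in the neutrophils. Mast cells and basophils share most of these markers and were kept as 1 class.

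In bone marrow, B cells develop from pro-B cells, which rearrange the heavy chain gene with the Rag recombinase, through dividing large pre-B cells to small resting pre-B and immature B cells. Neutrophils pass from progenitors rich in primary granule proteases through cells that make secondary granule proteins to mature cells that express chemokine receptors and cytokines. In all of these cells, stress and receptor signals switch on immediate-early transcription factors of the Fos, Jun, Egr and Nr4a families within minutes, and NF-kB switches on its own inhibitors, among them Nfkbia and Tnfaip3, together with chemokines and cytokines.

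Over all cells the libraries were of like median depth, with 118156481 UMIs and a median of 4572 per cell in the untreated library and 144146202 UMIs and a median of 4953 in the treated library. Medians per cell were also alike in B cells, at 4193.5 and 4276, and in monocytes, at 13350 and 13616. They were less alike in neutrophils, at 5817 and 7689.5, macrophages, at 2541 and 3007, and mast cells or basophils, at 2790 and 4728. The libraries also differed in barcodes that carried markers of several classes. These mixed barcodes were 17.7% of the cells in the untreated library, with a median of 2212.5 UMIs and 1136 CPM of the collagen gene Col1a1, and 9.60% in the treated library, with a median of 7293 UMIs and 52.8 CPM of Col1a1. The other 6 libraries had 7.34% to 19.5%. Haemoglobin genes took 1.83% of all UMIs in the untreated library and 0.718% in the treated library. The pair shared 64 cell barcodes, of which 12 fell in the same class and 0 had identical counts. Without the mixed barcodes in the denominator, the ratios of class shares given next kept their direction, at 1.33 for B cells, 0.533 for neutrophils and 0.757 for monocytes. The part of the mixed barcodes and of free RNA in the gene levels was not tested.

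B cells made up a larger share of the treated library and neutrophils a smaller one. Of 15318 cells in the untreated library, 5350 were B cells, 34.9% (34.2% to 35.7%), and of 16945 in the treated library, 8637 were, 51.0% (50.2% to 51.7%), a ratio of 1.46 (1.41 to 1.51). The untreated library had the lowest and the treated library the highest B cell share of all 8 libraries, the other 6 lying between 36.2% and 48.9%. Neutrophils were 12.0% (11.4% to 12.5%) of cells without and 7.0% (6.62% to 7.39%) with shock waves, a ratio of 0.586 (0.544 to 0.630), against 7.03% to 26.6% in the other 6.

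Monocytes made up 10.9% of cells in the untreated library and 9.08% in the treated library, a ratio of 0.832 (0.776 to 0.892). This direction was not kept after thinning, which also changed which cells were in the class. When every cell was thinned to 1000 UMIs, which left out 455 shallower cells of the untreated library and 1043 of the treated library, the monocyte shares were 2.45% and 2.74%, a ratio of 1.12 (0.970 to 1.29). That interval included 1, and the class held 364 and 435 cells instead of 1672 and 1539. Macrophages were rare in both libraries, 77 cells (0.503%) and 79 cells (0.466%), with a ratio of 0.927 (0.669 to 1.29). Mast cells or basophils numbered 53 (0.346%) and 67 (0.395%), with a ratio of 1.14 (0.785 to 1.67), so the intervals of both rare classes included 1. Shares are of 1 whole, so a larger B cell share lowers the others, and absolute cell numbers were not measured.

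**Figure D1:**
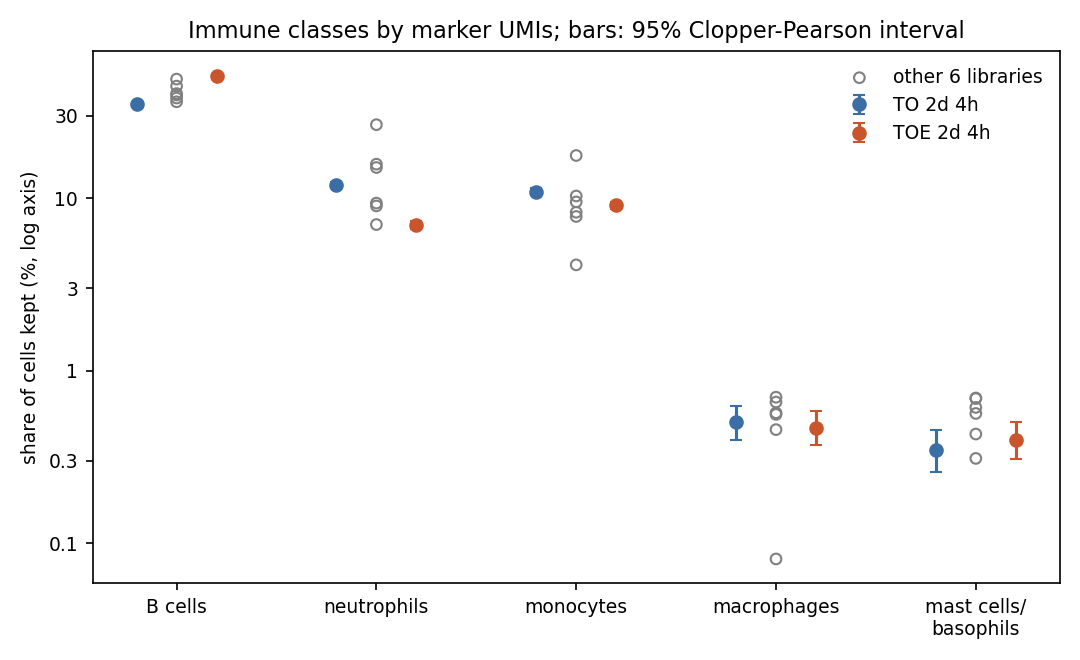
Share of all kept cells, in percent on a log axis with 95% Clopper-Pearson intervals for the pair, of each of the 5 immune classes in the 8 libraries, with the pair set apart by colour from the other 6 libraries. B cells stand at 34.9% in the untreated and 51.0% in the treated library of the pair, below and above all the other libraries, and neutrophils at 12.0% and 7.0%.

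Gene levels were then compared within each class, as CPM of the UMIs summed over the cells of the class. Among genes with at least 50 UMIs over the pair, a 2-fold difference is used below as a size, not as a test. The median gene was 0.14 higher in the treated library on the log2 scale in B cells and in neutrophils, 0.12 in monocytes and 0 in macrophages and mast cells or basophils, so list medians near those values are no difference from the background. Genes measured in a class are the list members with at least 50 UMIs there. Lists were described by their counts and medians, with no set test, and where a pair of levels is given the untreated library comes first.

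The 3 large classes had in common a lower level of immediate-early genes, of NF-kB targets and of chemokines and cytokines in the treated library, with smaller medians in monocytes, −0.33, −0.37 and −0.42, than in B cells and neutrophils. They also shared higher G2/M genes, with medians of 1.10 in B cells, 0.70 in neutrophils and 0.56 in monocytes, and lower haemoglobin genes, which belong to red cells, with medians of −0.79, −1.07 and −0.91. Promoters of 3 genes that were lower in B cells, neutrophils and monocytes, apart from Cxcl2, which was higher in monocytes, are shown because their sequences hold the motifs through which these programmes are commonly controlled. Nfkbia encodes the inhibitor that returns NF-kB to the cytoplasm, Cxcl2 a chemokine that attracts neutrophils, and Dusp1 a phosphatase that switches off MAP kinases. Each promoter runs from 250 bases before to 50 after the RefSeq transcription start in build GRCr8, and is given 5′ to 3′ on the strand of the gene. They lie at chr6:78597023-78597322 on the minus strand for Nfkbia, at chr14:17467206-17467505 on the minus strand for Cxcl2 and at chr10:17184603-17184902 on the plus strand for Dusp1. Capitals mark matches on either strand to an NF-kB motif, spelled GGG, any 3 bases, T, any base and CC, or to the cyclic AMP response element TGACGTCA, which is bound by CREB and ATF factors.
Nfkbia: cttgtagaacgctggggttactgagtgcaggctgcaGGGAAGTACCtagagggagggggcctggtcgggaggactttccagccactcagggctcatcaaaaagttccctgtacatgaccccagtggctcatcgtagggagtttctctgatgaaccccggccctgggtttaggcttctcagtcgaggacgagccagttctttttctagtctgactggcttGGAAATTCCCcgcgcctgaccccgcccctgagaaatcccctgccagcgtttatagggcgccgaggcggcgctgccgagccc
Cxcl2: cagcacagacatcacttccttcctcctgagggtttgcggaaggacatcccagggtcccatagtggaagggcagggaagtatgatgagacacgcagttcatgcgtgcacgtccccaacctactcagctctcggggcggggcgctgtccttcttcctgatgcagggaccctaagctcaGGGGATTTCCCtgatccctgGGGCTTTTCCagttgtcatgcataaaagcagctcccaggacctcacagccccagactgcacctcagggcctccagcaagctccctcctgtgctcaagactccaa
Dusp1: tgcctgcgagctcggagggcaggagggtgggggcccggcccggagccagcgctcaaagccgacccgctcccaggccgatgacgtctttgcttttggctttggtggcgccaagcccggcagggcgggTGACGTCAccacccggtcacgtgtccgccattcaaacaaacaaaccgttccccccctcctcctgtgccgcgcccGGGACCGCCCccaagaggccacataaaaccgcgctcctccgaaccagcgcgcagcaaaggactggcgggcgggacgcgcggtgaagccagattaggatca

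The Nfkbia promoter held NF-kB matches at 214 and 31 bases before the start, and the Cxcl2 promoter a pair of overlapping matches at 74 and 73 bases and another at 54 bases before it. The Dusp1 promoter held the cyclic AMP response element 124 bases before the start and an NF-kB match at 50 bases. Of 27457 RefSeq promoters of the same length, 16.7% held the NF-kB motif, against 12 of the 17 promoters matched for the NF-kB list (70.6%) and 12 of the 21 for the chemokine list (57.1%). The response element was in 1.91% of all promoters and in 5 of the 17 matched for the immediate-early list (29.4%), those of Maff, Dusp1, Btg2, Jund and Ier2. A serum response motif, spelled CC, any base, TAT, any 2 bases and GG, was in 1.25% of all promoters and in 2 of the same 17. The NF-kB motif was also in 4 of the 17 promoters matched for the immediate-early list (23.5%) and in 3 of the 16 for the G2/M list (18.8%). The NF-kB list was drawn up as targets of NF-kB, and the 3 printed promoters were chosen for their motifs. These matches therefore say nothing about the difference between the libraries. A match describes the letters only.

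Cycling genes were higher in B cells, which had the largest G2/M median and summed ratio of the 5 immune classes over all their cells. Endothelial cells, outside these classes, had a larger summed ratio, 2.11 (1.94 to 2.28). In B cells, all 20 of the G2/M genes measured, which act in mitosis and the phase before it, were higher in the treated library, 13 of them past 2-fold, where 983 of 14526 genes (6.77%) were past 2-fold higher in B cells. The list median was 1.10 on the log2 scale and the summed level 2925 and 5088 CPM, a ratio of 1.74 (1.73 to 1.75), against 2602 to 5852 CPM in the other 6 libraries. Cdc20, an activator of the anaphase-promoting complex, was at 23.6 CPM in the untreated library and 83.7 CPM in the treated library, a ratio of 3.55 (3.27 to 3.86). Cdk1, the kinase that drives entry into mitosis, was at 31.2 and 93.5 CPM. The mitotic kinases Plk1, at 17.0 and 50.1 CPM, and Aurkb, at 23.3 and 61.6 CPM, stood in the treated library above their highest level in the other 6 libraries, 43.8 and 55.1 CPM. The proliferation marker Mki67 differed little by comparison, at 576 and 636 CPM. S phase genes, which copy DNA, were higher in 20 of 20, with a median of 0.63 and summed levels of 1163 and 1757 CPM, the latter above the 993 to 1434 CPM of the other libraries. The replicative helicase subunit Mcm7 was at 40.8 and 88.9 CPM, and the thymidylate synthase gene Tyms at 25.5 and 48.9 CPM.

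The higher summed level went with more cells that held G2/M UMIs. With each B cell thinned to 1000 UMIs, which left out 142 and 264 shallower B cells, 21.4% (20.3% to 22.5%) of B cells in the untreated library and 29.5% (28.5% to 30.5%) in the treated library had at least 2 UMIs of the list, against 15.0% to 28.3% in the other 6 libraries. Before thinning these shares were 43.1% and 55.9%. Cells with exactly 1 such UMI, just under the limit, were 17.2% and 19.5%. The summed list was also higher within the cells at or over the limit, at 7395 and 10025 CPM, a ratio of 1.36. Within cells with no such UMI after thinning it was at 220 and 296 CPM, a ratio of 1.35. The list chose these cells, and the cut was set after the levels were seen.

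Genes of early B cell stages were mixed, with 9 of 13 pro-B and pre-B genes higher and a median of 0.24. Rag2, a subunit of the recombinase, was at 33.8 CPM in the untreated library and 92.1 CPM in the treated library, a ratio of 2.73 (2.54 to 2.93). Its partner Rag1 went the other way, at 309 and 234 CPM. Dntt, which adds bases at the joins of rearranged genes, was at 28.7 and 58.3 CPM, and Igll1, a part of the surrogate light chain, at 104 and 199 CPM, both above all the other libraries. Sox4, a factor needed by pro-B cells, was lower, at 876 and 524 CPM. Among genes of later stages the ectoenzyme gene Cd38 was at 43.2 and 88.8 CPM, whereas the homing receptor Ccr7 was at 16.6 and 4.49 CPM and the activation marker Cd83 at 290 and 136 CPM. Of the 14 measured genes of immature and mature B cells, 11 were higher, with a median of 0.29.

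Immediate-early genes were lower in the treated library in 24 of 25 members, 7 of them past 2-fold, where 638 of 14526 genes (4.39%) were past 2-fold lower in B cells. The median was −0.86 on the log2 scale and the summed level 5207 and 3170 CPM, a ratio of 0.609 (0.604 to 0.613). Nr4a3, an orphan nuclear receptor induced by receptor signalling, was at 59.6 and 18.7 CPM, a ratio of 0.313 (0.289 to 0.340). Maff, a small Maf factor, was at 49.4 and 16.4 CPM, and Egr2 at 4.09 and 1.26 CPM. Egr1, at 90.6 and 47.7 CPM, was in the treated library below its lowest level in the other 6 libraries, 90.2 CPM. The abundant members Jun, at 704 and 385 CPM, and Btg2, at 1504 and 973 CPM, were lower by less than 2-fold.

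NF-kB genes followed the same direction in B cells, lower in 17 of 19, 5 past 2-fold, with a median of −0.77 and summed levels of 4983 and 2789 CPM. The 4983 CPM of the untreated library was the highest of the 8 libraries, the other 6 lying between 1373 and 4594 CPM. Nfkb1, the precursor of the p50 subunit, was at 1294 and 623 CPM, a ratio of 0.481 (0.474 to 0.489). The subunit gene Rel was at 997 and 489 CPM, the inhibitor Nfkbid at 159 and 75.8 CPM and the inhibitor Nfkbia, whose promoter is printed above, at 823 and 509 CPM. Cflar, an inhibitor of apoptosis, was 1 of the members that went up, at 90.0 and 109 CPM.

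Chemokines and cytokines had a median of −0.94 in B cells, lower in 19 of 20 with 9 past 2-fold, but their summed level was low, at 346 and 180 CPM. Part of it sat in single cells. Ccl3, a chemokine for monocytes and lymphocytes, was at 47.3 and 14.5 CPM, with 24.9% of its UMIs in the untreated library from 1 cell, and Cxcl2 at 38.4 and 13.5 CPM with 21.8% from 1 cell. Tgfb1, a cytokine made by many lymphocytes, was more evenly spread, at 107 and 68.0 CPM. Of genes that mark other cells, the summed neutrophil markers were at 1057 and 1054 CPM in B cells, while the mature neutrophil genes were lower in 10 of 14, at 825 and 619 CPM, and the haemoglobin genes in 7 of 7, at 679 and 398 CPM. Monocyte markers went the other way, higher in 7 of 8, at a summed 68.9 and 92.5 CPM. The part of all these genes in the chemokine difference was not tested.

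Genes of the integrated stress response, the programme of ATF4, were lower in 12 of 17 in B cells with a median of −0.66. Ddit3, a factor of prolonged stress, was at 529 and 248 CPM, and Trib3, its target, at 18.5 and 6.53 CPM. Heat shock chaperones were lower in 15 of 19, with a median of −0.43, although the inducible Hspa1a was level, at 113 and 114 CPM. The circadian gene Per1, also induced by glucocorticoids, was at 43.9 and 17.4 CPM in a list with a median of −0.55, and was the lowest of the 8 libraries in the treated library.

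The B cells were also split by G2/M UMIs after thinning to 1000 UMIs, which loses many of those UMIs, so that the group without them can still hold dividing cells. In B cells with no G2/M UMI after thinning, 3198 and 4271 cells, the immediate-early median was −0.85 and the NF-kB median −0.66. In those with at least 2 G2/M UMIs, 1115 and 2472 cells, the medians were −0.88 and −1.03. The chemokine and cytokine medians were −1.41 and −0.99. The immediate-early medians were thus close, the NF-kB median was larger in size in the cells with G2/M UMIs and the chemokine median in those without, and the difference between the groups was not tested.

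Genes past 2-fold in B cells numbered 983 higher and 638 lower. Together they were 11.2% of the genes compared. After the median gene was set to 0, the split was 681 higher and 935 lower, so the balance between directions depends on the scaling. The largest fall was Pcp4l1, a small protein related to a calmodulin regulator, with 4801 UMIs in the untreated library and 33 in the treated library, or 174 and 0.673 CPM. The other 6 libraries held 51.7 to 184 CPM, so the treated library was the exception, and the gene was also low in the rest of its library, at 0.507 CPM against 20.3 CPM. Hpse2, a relative of heparanase, was at 17.5 and 0.857 CPM, with 0.225 to 9.06 CPM elsewhere, so here the untreated library stood apart. Lhcgr, the receptor of luteinising hormone, went from 3.48 to 0.0408 CPM, and LOC500174 from 7.97 to 0.571 CPM. Scrg1, at 1.70 and 0.0816 CPM, had 63.8% of its UMIs in 1 cell.

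The largest rises in B cells were of genes with very few UMIs in the untreated library. Prg3 was at 1 and 86 UMIs, F13b, a coagulation factor subunit, at 2 and 92, and Fgf8, a growth factor, at 2 and 84. LOC103692723 was at 0.254 and 8.73 CPM in B cells and at 0.111 and 220 CPM in the rest of the 2 libraries, so the difference was not particular to B cells. LOC108350992 was at 0.290 and 9.63 CPM, within the 0.507 to 14.3 CPM of the other libraries in the treated library. Ifi27, an interferon-stimulated gene, was the largest rise of its list at 6.59 and 37.3 CPM, while the list as a whole had a median of 0.11, close to the 0.14 of all genes.

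**Figure D2:**
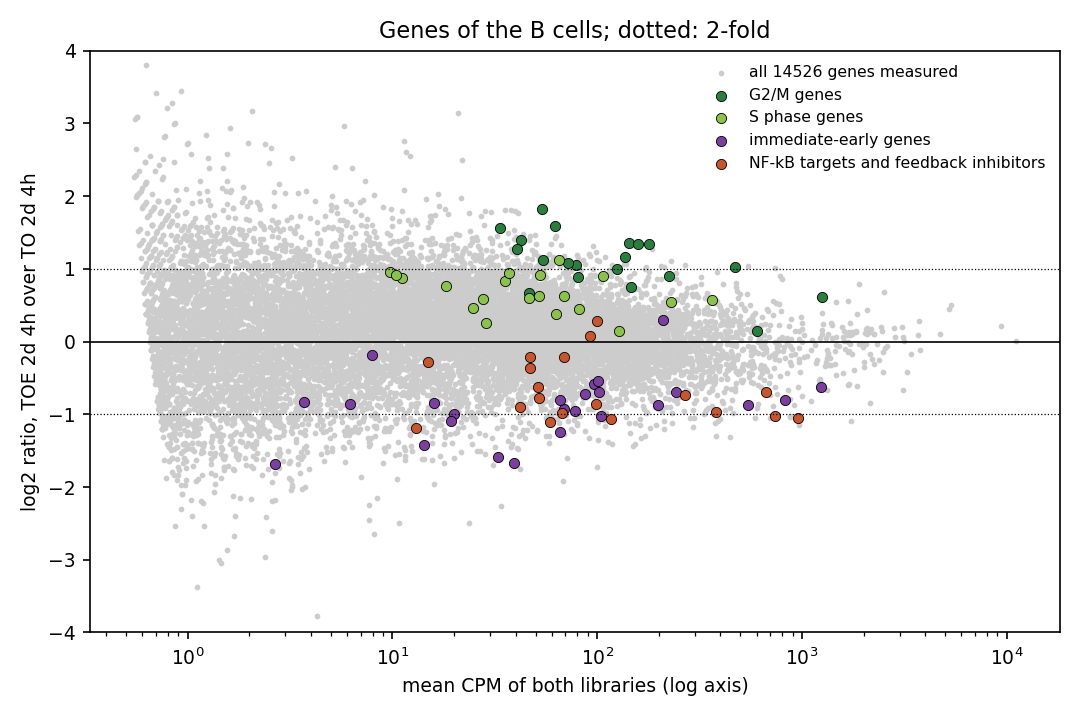
Each point is a gene in B cells, with its mean CPM on a log axis and the log2 ratio of TOE 2d 4h over TO 2d 4h, with members of the G2/M, S phase, immediate-early and NF-kB lists in colour and dotted lines at 2-fold; 9 genes lie beyond the plotted log2 range of 4. The G2/M genes lie above 0, while 24 of 25 immediate-early genes and 17 of 19 NF-kB genes lie below it.

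In neutrophils the same 3 lists were lower. The chemokines and cytokines were lower in 19 of 21, 8 past 2-fold, where 344 of 11122 genes (3.09%) were past 2-fold lower in neutrophils, with a median of −0.82 and summed levels of 4012 and 1833 CPM, a ratio of 0.457 (0.450 to 0.464). The 4012 CPM of the untreated library was the highest of all 8 libraries, the other 6 holding 1049 to 3236 CPM. Ccl3 was at 540 and 191 CPM, a ratio of 0.354 (0.337 to 0.371). Il1b, the inflammasome-dependent cytokine, was at 831 and 319 CPM, a ratio of 0.383 (0.369 to 0.398). Cxcl2 was at 1151 and 524 CPM and Osm, a cytokine of the interleukin-6 family, at 275 and 122 CPM. The interleukin-1 antagonist gene Il1rn went the same way as Il1b, at 188 and 87.6 CPM, while Tnf was low and near level, at 8.76 and 7.64 CPM.

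Immediate-early genes were lower in 23 of 24 in neutrophils, 7 past 2-fold, with a median of −0.72 and summed levels of 8898 and 5412 CPM. The other 6 libraries held 5292 to 10157 CPM. The lowest, 5292 CPM, was TO 2d 0h, the untreated library before any session. The treated level was near that library and near the treated TOE 4d 24h, at 5491 CPM. It was below the untreated TO 4d 4h and TO 4d 24h, at 10157 and 9033 CPM. Fosb, a Fos family member, was at 522 and 183 CPM, a ratio of 0.351 (0.334 to 0.369), and Fos at 505 and 255 CPM. Klf2 and Klf4, zinc finger factors that restrain inflammatory genes, were at 541 and 250 CPM and at 45.1 and 17.4 CPM. NF-kB genes were lower in 18 of 19 with a median of −0.48, and only Tnfaip3, a ubiquitin-editing inhibitor, at 153 and 71.7 CPM, was past 2-fold among the 19. The summed NF-kB level was 5284 and 3636 CPM. TO 2d 0h, at 3538 CPM, was again near the treated level, while TO 4d 4h and TO 4d 24h held 4255 and 5420 CPM. Nfkbia was at 1988 and 1153 CPM. Nlrp3, the sensor of the inflammasome, was at 224 and 82.8 CPM, and Nos2, the inducible nitric oxide synthase, at 1324 and 598 CPM.

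Mature neutrophil genes had a median of −0.18 and secondary granule genes one of 0.14, against 0.14 over all genes. The mature neutrophil genes summed to 5843 and 4745 CPM, a ratio of 0.812 (0.803 to 0.821), and the treated value was below the 5090 to 11614 CPM of the other 6 libraries. Clec4d and Clec4e, C-type lectin receptors of mature neutrophils, were at 284 and 91.4 CPM and at 230 and 99.4 CPM, and the 91.4 CPM of Clec4d was below the 134 to 475 CPM of the other 6 libraries. Ccrl2, an atypical chemokine receptor, was at 32.6 and 9.55 CPM. The list of mature neutrophil genes was lower in 11 of 16, 3 past 2-fold, and Cxcr2, the receptor for Cxcl2, was higher, at 92.7 and 125 CPM. Among secondary granule genes, 8 of 13 were higher. Hp, haptoglobin, was at 581 and 2046 CPM, a ratio of 3.52 (3.43 to 3.61), within the other libraries' 321 to 2414 CPM, and Lcn2, an iron-scavenging lipocalin, was at 2145 and 3876 CPM. Ngp was lower, at 15896 and 12131 CPM.

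Primary granule genes had a median of 0.84 in neutrophils, 3 of 7 past 2-fold higher, where 394 of 11122 genes (3.54%) were past 2-fold higher. These values rest on few cells. The protease gene Ctsg was at 21.9 and 75.3 CPM with 50.6% of the treated UMIs in 1 cell, and Prtn3 at 16.3 and 51.0 CPM with 57.1% in 1 cell. G2/M genes were higher in 19 of 20 with a median of 0.70, 0 of them past 2-fold, and Top2a, which untangles DNA in dividing cells, was at 153 and 254 CPM. Summed B cell markers in neutrophils were at 950 and 1452 CPM and the pro-B and pre-B list at 1214 and 1933 CPM, and summed haemoglobin genes at 1190 and 576 CPM. The part of RNA from other cells in the neutrophil values was not tested.

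To see whether a different mix of stages went with these differences, neutrophils were split at the pair's median level of Camp and Ngp, 149 UMIs per 10000. Those below it, which are low in secondary granule RNA, were 54.5% of neutrophils in the untreated library and 43.1% in the treated library, against 38.8% to 67.9% in the other 6 libraries. Within 20% of the cut lay 85 and 102 cells. Among the low cells, 997 and 511, the chemokine median was −0.93 and the immediate-early median −0.80, with summed ratios of 0.513 and 0.596. Among the high cells the medians were −0.51 and −0.49, with summed ratios of 0.61 and 0.68. NF-kB genes had a median of −0.65 and a summed ratio of 0.636 among the low cells, and a median of −0.21 and a summed ratio of 0.929 among the high cells. Cxcl2 was at 2972 and 1568 CPM in the low cells but at 69.4 and 74.8 CPM in the high cells, a ratio of 1.08 (0.960 to 1.21). All 3 medians were below 0 on both sides of the cut and larger in size among the low cells. Over all neutrophils the summed chemokine ratio was 0.457, so for this list both sides differed less than neutrophils as a whole. The immediate-early and NF-kB ratios over all neutrophils, 0.608 and 0.688, lay between those of the low and the high cells. G2/M genes were higher in 20 of 20 among the low cells, with a median of 1.19, and in 18 of 20 among the high cells, with a median of 0.40. The pro-B and pre-B list had summed ratios of 1.77 and 1.58 in the same order. The difference between the sides, and the part of the mix of stages and of B cell RNA in these values, were not tested.

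The largest falls in neutrophils were led by Pcp4l1, with 137 UMIs in the untreated library and 0 in the treated library, where a count of 0 has an upper bound of 0.336 CPM. Its 9.83 CPM in untreated neutrophils was below the 62.6 CPM of the rest of that library. RGD1562525 was at 67.9 and 0.910 CPM, Rbpms2 at 6.89 and 0.0910 CPM and Cd200l2 at 4.16 and 0.0910 CPM. Ifi27l2b, an interferon-stimulated gene, was at 331 and 13.5 CPM, and only the treated value was below the other libraries' 102 to 959 CPM. Of the largest rises, the 52 UMIs of Drd3 came from 1 cell. LOC103692723 was at 0.0718 and 11.6 CPM, LOC300024 at 0.359 and 30.0 CPM, and Tgm1, a transglutaminase, at 1.44 and 20.5 CPM. Hspb1, a small heat shock protein, was at 0.789 and 9.19 CPM, with 46.5% of the treated UMIs in 1 cell. After the median gene was set to 0, the 394 higher and 344 lower genes, together 738 (6.64%), became 250 and 495.

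**Figure D3:**
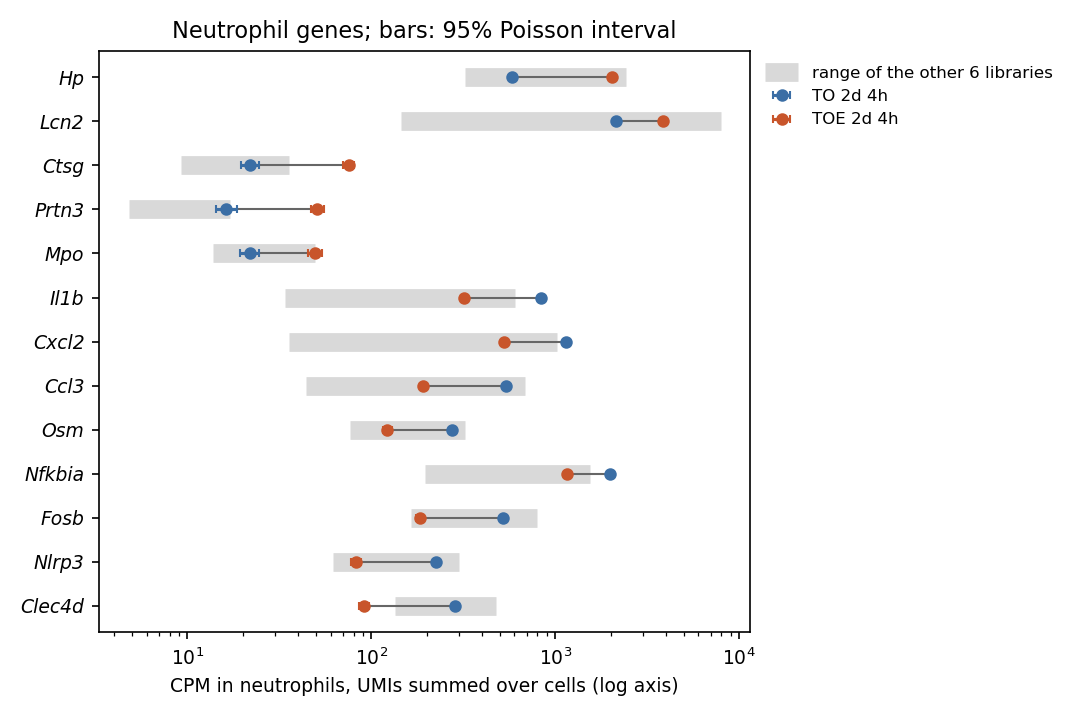
CPM in neutrophils, on a log axis, of named genes in TO 2d 4h and TOE 2d 4h, with 95% Poisson intervals, joined by a line, and grey bars for the range of the other 6 libraries. The cytokine genes Ccl3, at 540 and 191 CPM, and Il1b, at 831 and 319 CPM, are lower with shock waves, and Hp, at 581 and 2046 CPM, is higher.

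Monocytes showed the same lists lower by less, and glycolytic genes higher. Immediate-early genes were lower in 21 of 25 with a median of −0.33 and summed levels of 6066 and 4871 CPM, and 0 were past 2-fold, where 279 of 12837 genes (2.17%) were past 2-fold lower in monocytes. Fosb was at 493 and 264 CPM and Klf4 at 347 and 192 CPM, while Fos was level, at 496 and 529 CPM. NF-kB genes were lower in 19 of 20 with a median of −0.37, and their summed 8884 CPM in the untreated library was the highest of the 8 libraries, against 6960 CPM in the treated library and 2284 to 7619 CPM elsewhere. Tnfaip3 was at 296 and 162 CPM, the apoptosis inhibitor Birc3 at 246 and 137 CPM and the adhesion molecule Icam1 at 193 and 112 CPM.

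Cytokines split in monocytes. Ccl3 was at 1548 and 816 CPM, a ratio of 0.527 (0.518 to 0.536), and Tnf at 40.8 and 22.7 CPM. Il1b, which was lower in neutrophils, was at 890 and 889 CPM, Cxcl2 was higher, at 834 and 945 CPM, and the anti-inflammatory Il10 was at 6.18 and 13 CPM. In all, 20 of 25 were lower with a median of −0.42.

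Hypoxia and glycolysis genes were higher in 17 of 25 in monocytes, 4 past 2-fold, where 444 of 12837 genes (3.46%) were past 2-fold higher, with a median of 0.45 and summed levels of 5921 and 8885 CPM, a ratio of 1.5 (1.49 to 1.51). The other 6 libraries held 5106 to 9033 CPM. Ldha, lactate dehydrogenase, was at 605 and 1423 CPM, a ratio of 2.35 (2.31 to 2.40), above the 1286 CPM of the highest other library. Tpi1, a glycolytic enzyme, was at 146 and 319 CPM and Bnip3, a mitophagy receptor, at 11.6 and 25.3 CPM, whereas Vegfa was level, at 151 and 145 CPM. Heat shock chaperones were higher in 16 of 19 with a median of 0.46, Hsph1 at 436 and 783 CPM and Hspa1a at 511 and 849 CPM, opposite in direction to their median in B cells. The summed hypoxia and glycolysis level was also higher in B cells, at 1335 and 1750 CPM, a ratio of 1.31 (1.29 to 1.33). These values lay below and above the 1434 to 1700 CPM of the other 6 libraries. Of the 24 members measured in B cells, 12 were higher and 12 lower, with a median of −0.013.

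The list of thrombospondin and matrix genes was mixed in monocytes, with 6 of 13 higher, 7 lower and a median of −0.048. Its summed level was near the same in both libraries, at 3655 and 3584 CPM. Timp1, an inhibitor of matrix metalloproteinases, was at 30.7 CPM in the untreated library and 174 CPM in the treated library, a ratio of 5.67 (5.26 to 6.13). The control value was below and the treated value above all the other libraries, which held 34.6 to 163 CPM. Thbs1, thrombospondin 1, a matrix glycoprotein that the study followed as vesicle cargo, was at 24.4 and 130 CPM in monocytes, a ratio of 5.33 (4.89 to 5.81). It was highest in TO 2d 0h, before any session, at 171 CPM, and stood at 46.7 CPM in TOE 2d 24h, 18.3 CPM in TO 4d 4h, 71.2 CPM in TOE 4d 4h, 60.03 CPM in TO 4d 24h and 9.37 CPM in TOE 4d 24h. The treated library of the pair was thus second to the untreated library taken before any session, and the lowest of the 8 was also a treated one. In neutrophils Thbs1 was at 18.4 and 17.3 CPM, in B cells at 1.09 and 1.71 CPM, and in macrophages at 0 in both, with upper bounds of 8.84 and 10.3 CPM.

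Macrophage-type genes were lower in monocytes. In the list of scavenger and iron genes 15 of 20 were lower, 7 past 2-fold, with a median of −0.71, while the summed level was higher, at 6891 and 9086 CPM, with the abundant ferritin gene Fth1 at 4327 and 7190 CPM. Apoe, an apolipoprotein, was at 459 and 74.2 CPM, a ratio of 0.162 (0.154 to 0.170), the mannose receptor Mrc1 at 23.1 and 7.99 CPM and Spp1, osteopontin, at 443 and 189 CPM. The scavenger receptor Msr1 was higher, at 93.7 and 192 CPM. Primary granule genes were higher in 6 of 7, 4 past 2-fold. Among them Prtn3 and Mpo, which mark monocyte and granulocyte progenitors, were at 13.1 and 34.2 CPM and at 31.8 and 64.5 CPM. The list also held Cd63, followed below as a vesicle gene, at 198 and 355 CPM of the summed 415 and 742 CPM. Hp was at 86.5 and 406 CPM. Summed neutrophil markers in monocytes were at 3928 and 5339 CPM and summed markers of granulocyte and monocyte progenitors at 112 and 215 CPM, and summed macrophage markers were at 34.8 and 19.4 CPM, although 4 of the 8 were higher. Their part in these values was not tested.

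Among the 5 largest rises in monocytes was Ltb4r, the receptor for the chemoattractant leukotriene B4, at 3.58 and 38.5 CPM, above the 0.790 to 16.4 CPM of the other libraries. RGD1561730 was at 1.28 and 20.8 CPM and LOC120095902 at 1.21 and 13.8 CPM, against at most 0.944 and 0.653 CPM elsewhere. LOC103692723 was at 2 and 196 UMIs and LOC108350992 at 0 and 65 UMIs. The largest falls were Nqo2, a quinone reductase, at 6.03 and 0.122 CPM, Csrnp3 at 2.06 and 0.0811 CPM, Hpse2 at 16.2 and 0.811 CPM, Tnnt1, a troponin, at 3.62 and 0.243 CPM, and Pcp4l1 at 5.56 and 0.608 CPM. Pcp4l1, Hpse2 and LOC103692723 thus differed in the same direction in more than 1 class. For Pcp4l1 the 5.56 CPM of untreated monocytes was below the 70.6 CPM of the rest of that library. The part of RNA from B cells, where it was at 174 CPM, in its neutrophil and monocyte values was not tested. After the median gene was set to 0, the 444 higher and 279 lower genes, together 723 (5.63%), became 310 and 396.

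Macrophages were described from 77 and 79 cells, so that 1 cell can carry a gene. Heat shock chaperones were higher in 15 of 16, 6 past 2-fold, where 124 of 3211 genes (3.86%) were past 2-fold higher in macrophages, with a median of 0.59 and summed levels of 9409 and 16529 CPM. Hsp90aa1, the inducible HSP90, was at 1435 and 3520 CPM, a ratio of 2.45 (2.22 to 2.71), and Hspa1a at 822 and 2075 CPM. Hmox1, which degrades haem, was at 1536 and 4304 CPM, a ratio of 2.80 (2.56 to 3.08), above the 629 to 3763 CPM of the other libraries, and Gpnmb, a glycoprotein of lysosome-rich macrophages, was at 688 and 1933 CPM. The median of the heat shock list was 0.062 when cells with a lead of 1 marker were also admitted, so it depended on which cells were taken.

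MHC class II genes, which present antigen, were higher in 5 of 6 in macrophages with a median of 1.22. The invariant chain gene Cd74 was at 604 and 1688 CPM, with 34.2% of the treated UMIs in 1 cell, and RT1-Da was at 189 and 480 CPM, with 44.2% in 1 cell. Summed B cell markers in macrophages were at 826 and 1886 CPM and the pro-B and pre-B list was higher in 7 of 7. The part of these markers in the MHC class II values was not tested. The defining macrophage gene C1qa was at 4032 and 4574 CPM and the haemoglobin scavenger receptor Cd163 at 858 and 697 CPM.

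Immediate-early genes were not lower in macrophages, with 13 of 20 higher and a median of 0.33, and NF-kB genes were lower in 9 of 15 with a median of −0.24. With a lead of 1 marker the immediate-early median was 0.033. Among chemokines, Ccl7, which attracts monocytes, was at 24.0 and 145 CPM and Il1b at 141 and 307 CPM, whereas Ccl6 was at 302 and 139 CPM. Cd5l, a protein secreted by resident macrophages, was lower, at 613 and 279 CPM. Mmp12, the macrophage elastase, was at 33.5 and 234 CPM, above the 3.12 to 129 CPM elsewhere.

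For several of the largest macrophage differences, 1 cell held over 50% of the UMIs. Spp1 was at 4.79 and 156 CPM with 69.6% of the treated UMIs in 1 cell, Lef1 at 16.8 and 148 CPM with 56.6%, Hspb1 at 21.6 and 223 CPM with 48.8%, and Satb1 at 14.4 and 126 CPM with 33.3%. Among falls, Ifi27l2b was at 175 and 8.37 CPM with 87.7% of the untreated UMIs in 1 cell, Fcnb at 151 and 19.5 CPM with 73.0%, Fn1, fibronectin, at 144 and 22.3 CPM with 56.7%, and S100a4 at 390 and 22.3 CPM with 41.7%. Sesn3, a stress-induced sestrin, was more spread, at 132 and 25.1 CPM with 16.4%. In all, 102 of 3211 genes (3.18%) were past 2-fold lower in macrophages, and 226 (7.04%) in either direction.

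Mast cells or basophils numbered 53 and 67. NF-kB genes were lower in 8 of 9, 2 past 2-fold, where 82 of 2680 genes (3.06%) were past 2-fold lower, with a median of −0.73 and summed levels of 4548 and 2712 CPM. Tnfaip3 was at 342 and 131 CPM, a ratio of 0.382 (0.271 to 0.535), and Nfkbia at 1453 and 790 CPM. Sod2, mitochondrial superoxide dismutase, was at 201 and 60.7 CPM, with 41.7% of the untreated UMIs in 1 cell. Immediate-early genes were lower in 13 of 15 with a median of −0.54, and Ptgs2, the inducible cyclooxygenase, was at 389 and 138 CPM. Gadd45a, a stress-induced cell cycle inhibitor, was at 752 and 334 CPM.

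Protease genes of the granules differed from each other in mast cells or basophils. Cpa3, carboxypeptidase A3, was at 1453 and 3855 CPM, a ratio of 2.65 (2.39 to 2.96), and Mcpt2, a mucosal mast cell chymase, at 275 and 1899 CPM, with 53.1% of the treated UMIs in 1 cell. Mcpt8, a basophil protease and the most abundant of them, was at 28051 and 25429 CPM, below the other libraries' 30463 to 67331 CPM in both. The beta chain of the IgE receptor, Ms4a2, was at 550 and 876 CPM, and 48 of 2680 genes (1.79%) were past 2-fold higher in this class, and 130 (4.85%) in either direction.

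Among the largest rises, RT1-A3, an MHC class I gene, was at 50.3 and 369 CPM and spread over cells, with at most 26.7% in 1 cell of the untreated library and 6.96% in 1 of the treated library. The other 6 libraries held 61.7 to 357 CPM in this class. RT1-A3 was also higher in the rest of the treated library, at 52.1 and 146 CPM, so the direction was not particular to this class. Epx, eosinophil peroxidase, was at 60.4 and 334 CPM with 54.5% in 1 cell, Gzmbl1, a granzyme, at 6.71 and 161 CPM with 66.7%, and LOC102553861 at 0 and 117 CPM with 70.0%. Of the largest falls, Il1b was at 201 and 7.01 CPM with 95% of the untreated UMIs in 1 cell, Prune2 at 161 and 4.67 CPM with 95.8%, the haemoglobin gene Hbb-b2 at 151 and 18.7 CPM with 91.1% and Fcnb at 329 and 28.0 CPM with 61.2%. Rbm47 was at 164 and 9.34 CPM with 20.4%. Summed neutrophil markers in this class were at 3675 and 1140 CPM and summed haemoglobin genes at 6615 and 523 CPM. Their part in the other values was not tested.

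Set side by side, the lists gave different pictures in different classes. Immediate-early medians ran from −0.86 in B cells through −0.72 in neutrophils, −0.54 in mast cells or basophils and −0.33 in monocytes to 0.33 in macrophages. NF-kB medians were below 0 in all 5 classes. Over the 12 classes of the pair, the summed NF-kB level was lower in the treated library in 12, with ratios of 0.515 to 0.947, the immediate-early level in 10, with ratios of 0.472 to 1.21, and the chemokine level in 9, with ratios of 0.365 to 1.62. The NF-kB direction was thus shared with the classes outside these 5, all of them drawn from the same 2 libraries. Immediate-early genes were higher in macrophages and dendritic cells, with ratios of 1.21 and 1.02. In mesenchymal cells their ratio was 0.976 (0.952 to 1.00), an interval that included 1. Chemokines were higher in macrophages, T or NK cells and mesenchymal cells, with ratios of 1.09, 1.62 and 1.37. When every cell was given the same weight, the B cell ratios were 0.64 for immediate-early and 0.59 for NF-kB genes, near those of the summed counts, but the macrophage NF-kB ratio went from 0.906 to 1.06 and the immediate-early ratio of mast cells or basophils from 0.743 to 0.943. The direction of the NF-kB level in macrophages thus depended on the weighting of cells.

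**Figure D4:**
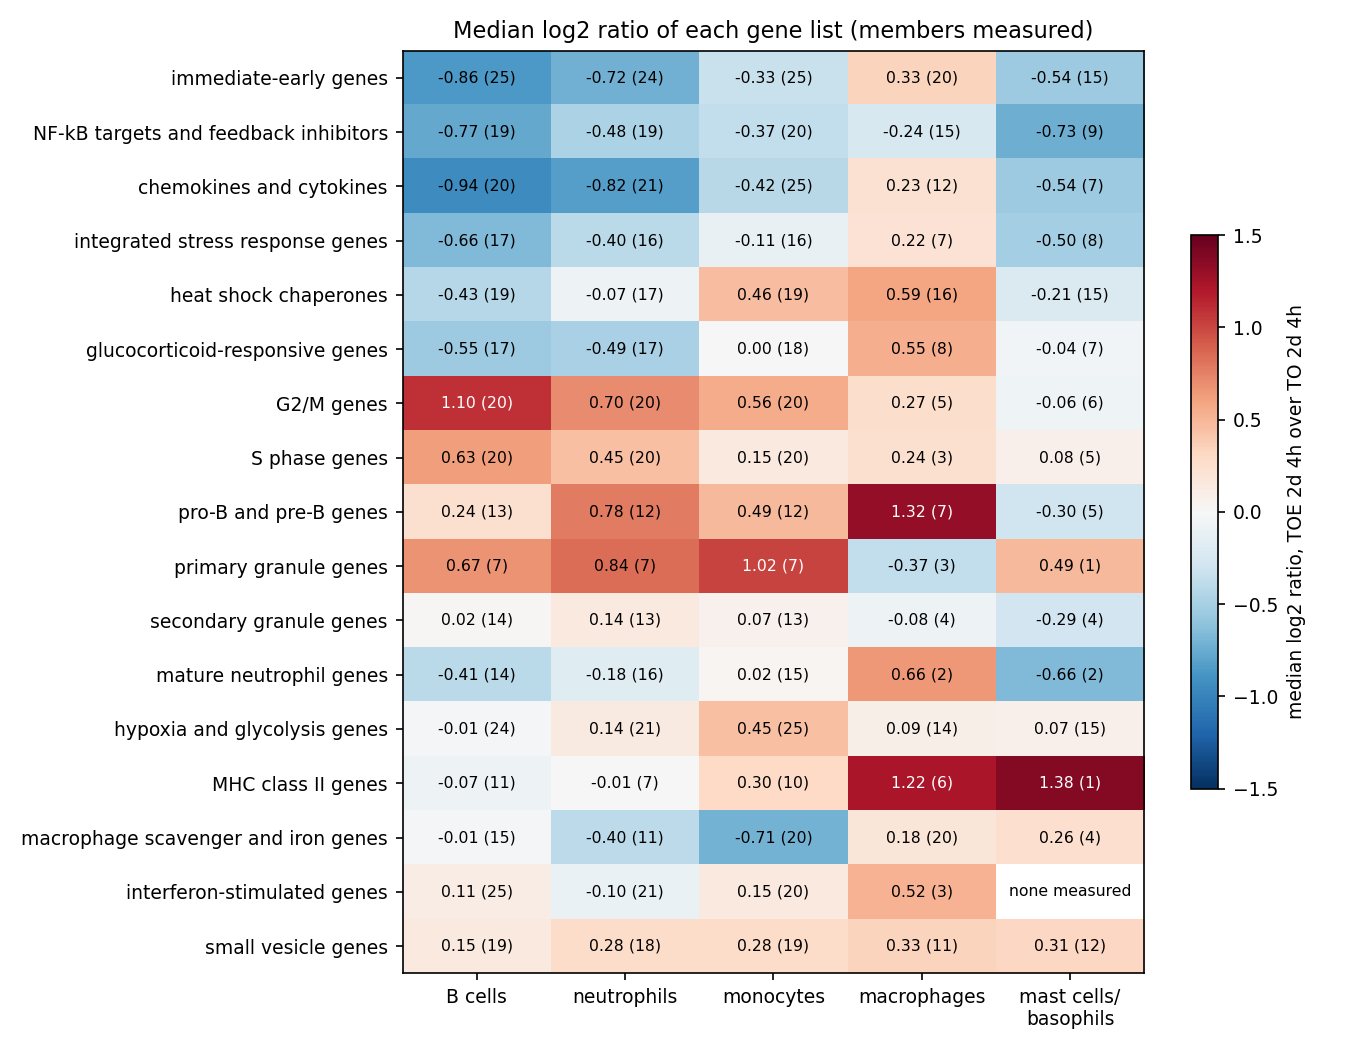
Median log2 ratio of TOE 2d 4h over TO 2d 4h for 17 gene lists in the 5 immune classes, with the number of members measured in brackets and colour from lower (blue) to higher (red). Immediate-early, NF-kB and chemokine lists are lower in B cells, neutrophils and monocytes, and G2/M genes are highest in B cells, at 1.10.

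The 6 other libraries show how far such levels moved across the series. Of these, TOE 2d 24h, TOE 4d 4h and TOE 4d 24h were treated. Among the untreated libraries, B cell immediate-early levels ran from 5207 CPM in TO 2d 4h to 6534 CPM in TO 4d 24h. Their NF-kB levels ran from 3783 CPM in TO 2d 0h to 4983 CPM in TO 2d 4h. Their G2/M levels ran from 2925 CPM in TO 2d 4h to 3604 CPM in TO 4d 4h. TOE 2d 4h lay outside these ranges, at 3170, 2789 and 5088 CPM. In B cells the summed immediate-early level was 6289 CPM in TO 2d 0h and 8709 CPM in TOE 2d 24h, but 2738 CPM in TOE 4d 24h, below the 3170 CPM of TOE 2d 4h. TOE 4d 24h also had the lowest NF-kB level, 1373 CPM, and the highest G2/M level, 5852 CPM, of B cells in all 8. In neutrophils the chemokine level of TOE 2d 4h, 1833 CPM, was lower than in every library but TOE 4d 24h, at 1049 CPM. In monocytes the immediate-early level of TOE 2d 4h, 4871 CPM, was the lowest of the 8, next to 5327 CPM in TO 2d 0h. At day 4 and 4 h, the NF-kB level of B cells was 4197 CPM in TO and 4124 CPM in TOE, so the separation seen at day 2 was not present in that pair. The G2/M level of B cells there went the other way, at 3604 and 2652 CPM, while in neutrophils the chemokine level, 3236 and 2322 CPM, and the immediate-early level, 10157 and 7591 CPM, were lower in TOE as at day 2. At day 4 and 24 h, B cells of TO and TOE had NF-kB levels of 3901 and 1373 CPM. Their immediate-early levels were 6534 and 2738 CPM and their G2/M levels 3576 and 5852 CPM, in the directions of day 2 and 4 h. Neutrophil chemokines there were lower in TOE, at 2802 and 1049 CPM, but monocyte immediate-early genes were higher, at 5446 and 6582 CPM.

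**Figure D5:**
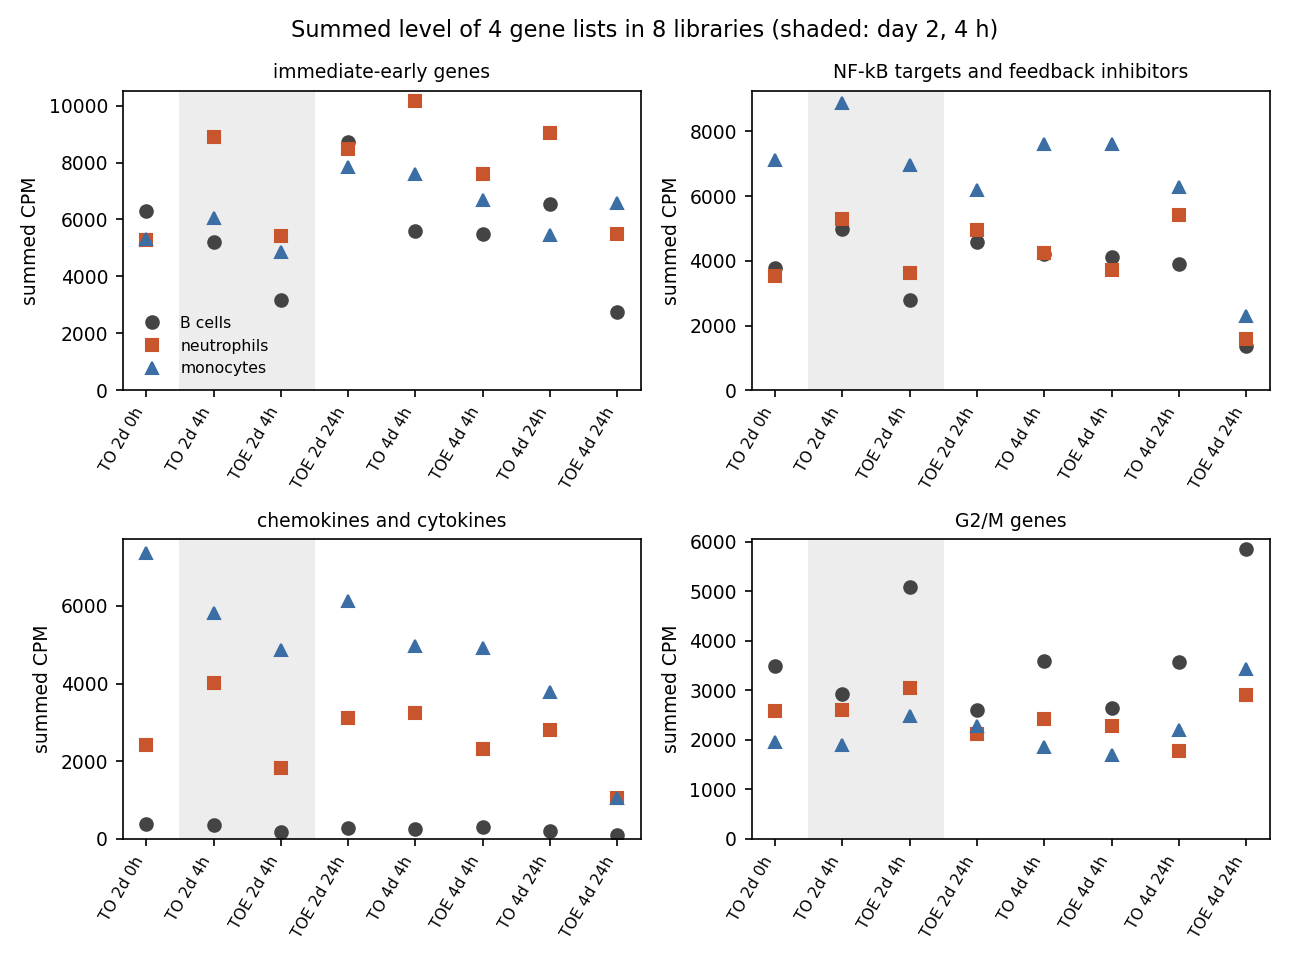
Summed CPM of 4 gene lists in B cells, neutrophils and monocytes for each of the 8 libraries, with the pair shaded. TO 2d 4h has the highest NF-kB level in B cells, 4983 CPM, and in monocytes, 8884 CPM, and TOE 4d 24h has the lowest NF-kB level of B cells, 1373 CPM.

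The study asked which cells released small extracellular vesicles after shock waves, and genes of vesicle formation and cargo were therefore followed in the immune classes. The list was higher in 12 of 19 in B cells, 12 of 18 in neutrophils and 16 of 19 in monocytes, with medians of 0.15, 0.28 and 0.28 against 0.14, 0.14 and 0.12 over all genes. The tetraspanin gene Cd63, found on many vesicles, was at 13 and 19.7 CPM in B cells, 490 and 768 CPM in neutrophils, 198 and 355 CPM in monocytes, 1399 and 2162 CPM in macrophages and 1809 and 2539 CPM in mast cells or basophils. It was therefore higher with shock waves in all 5 classes, by a ratio between 1.40 and 1.79. The untreated library before any session held more Cd63 than the treated library of the pair in B cells, 50.4 CPM, and in monocytes, 535 CPM. Cd81, another tetraspanin, was at 146 and 220 CPM in B cells, against 432 CPM before any session, and at 54.3 and 78.8 CPM in monocytes. In B cells the untreated library of the pair was the lowest of the 8 for both genes. Cd9 was lower in B cells, at 4.02 and 3.00 CPM, and in neutrophils, at 350 and 289 CPM.

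The flotillins, which organise membrane rafts, were higher in B cells, neutrophils and monocytes and level in macrophages, where Flot1 was at 57.5 and 55.8 CPM and Flot2 at 33.5 and 33.5 CPM. Flot2 was at 21.4 and 56.7 CPM in B cells, a ratio of 2.65 (2.43 to 2.91), at 144 and 284 CPM in neutrophils and at 78.4 and 134 CPM in monocytes, in each case above the other 6 libraries. Flot1 was at 14.4 and 26.9 CPM in B cells and 31.1 and 63.1 CPM in monocytes, and here the untreated library values lay below the other libraries' 22.1 to 44.5 and 50 to 66.1 CPM. Tsg101, a sorting complex subunit, was at 63.9 and 75.1 CPM in B cells, and Rab27a, which docks vesicles for release, at 21.2 and 36.6 CPM. RNA levels of these genes do not measure vesicle release.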

How the data were processed

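Single-cell 3′ RNA libraries of rat tibial osteotomy tissue were analysed, 1 per condition. Per the labels and the file headers, the deposited values are whole-number UMI counts made by the authors with Cell Ranger 9.0.0; the submitters' processing notes also list Seurat, R 4.0.3 and the builds mRatBN7.2 and GRCh38, with no role given. No cell annotation was used. The annotation listed 41801 genes.

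From the counts, cells with fewer than 200 genes or over 20% mitochondrial UMIs were left out, and cells were grouped by 8 markers for each of 12 classes (Vpreb1, Ighg and Azu1 were not in the annotation). The grouping rule was set after marker levels were seen. Doublets were kept in the reported values; a Scrublet score over 0.25 (scanpy 1.11.5) marked 3.56% of the untreated and 4.24% of the treated cells, and removing them was an alternative. UMIs were summed per class, given as CPM with exact Poisson intervals, and compared as a log2 ratio with a prior of 0.5 UMI among genes with at least 50 UMIs over the pair. Shares have Clopper-Pearson intervals, and ratios exact conditional intervals, all at 95% and for counting error only. The work was done with pandas 2.3.3, numpy 2.4.6 and scipy 1.17.1 in Python 3.11.15, and figures with matplotlib 3.10.9.

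Named genes were the 5 largest rises and 5 falls per class, genes of the study's vesicle question and, per list, the members furthest from 0; any others were picked with their values in view. The members, the lists and the comparison were chosen with earlier results of these data known. The fold calculation was tested on simulated counts. Alternatives covered the cell filter, thinning, marker number and lead, the denominator, doublets, the UMI minimum, the prior and centring. Promoter sequences came from RefSeq, build GRCr8.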

Additional observations from a re-analysis of the deposited data

How the results depend on the processing

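The B cell share ratio of 1.46 was 1.58 with cells thinned to 1000 UMIs, 1.60 with 1 marker more, 1.31 over grouped cells and 1.33 without mixed barcodes. The neutrophil ratio of 0.586 was 0.525 over grouped cells and 0.533 without mixed barcodes. The monocyte ratio of 0.832 was 0.747 and 0.757 in those 2 settings. After thinning it was 1.12 (0.970 to 1.29), an interval that included 1. The number of genes past 2-fold followed the UMI minimum, since fewer or more genes were then compared. At 200 UMIs it was 911 in B cells (1621 as reported), 324 in neutrophils (738), 320 in monocytes (723), 26 in macrophages (226) and 19 in mast cells or basophils (130), and at 20 UMIs it was 1242 in neutrophils, 1228 in monocytes, 704 in macrophages and 578 in mast cells or basophils. With a lead of 1 marker, macrophage medians became 0.033 for immediate-early, −0.18 for chemokine (0.23 as reported, so the sign changed), 0.062 for heat shock, 0.64 for G2/M, 0.75 for MHC class II and −0.74 for thrombospondin and matrix genes. In mast cells or basophils they became 0.44 for S phase and 0.082, reversed, for pro-B and pre-B genes, and haemoglobin medians became −1.35 in neutrophils and −0.51 in monocytes. With doublets removed, the M1 macrophage list in B cells was at −0.15 and the pro-B and pre-B list at 1.58 in neutrophils and 0.75 in monocytes. The cause was not tested. Of 103 list medians, the sign changed for 7 after centring, 4 without doublets, 8 with a lead of 1 marker and 0 with a prior of 5 UMIs.

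The lead of 1 marker, the mixed-barcode denominator, both splits of cells and the equal weighting of cells were added after the data were seen. No paired analysis was possible because each condition had 1 library, and for the same reason no replicate was left out. The 77 and 79 macrophages and 53 and 67 mast cells or basophils limit what their values can show.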
